A study of Oryza sativa Japonica Group with 4 samples.

Results

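The GDSL esterases and lipases of rice were followed in anthers of sterile and fertile plants. Members were taken by name: every gene of the deposited tables whose name holds the letters GDSL was kept, whatever its reads did. This gave 108 of the 35825 genes, each called GDSL esterase/lipase protein with a number of up to 114, written below as GDSL 30 or GDSL 96. Of the 108, 69 were expressed, meaning at least 10 counted reads in at least 1 of the 4 libraries. This share, 63.9%, stood beside 68.5% of all genes (24543). Of the other 39 members, 25 had 1 to 9 reads in their highest library and 14 had no read in any library.

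GDSL enzymes are serine hydrolases that cut acyl esters, and the family is named for the amino acids Gly, Asp, Ser and Leu around the active serine. Many are secreted and act on lipids, cutin or cell wall esters. In anthers the tapetum, the cell layer that feeds the microspores, supplies the lipid precursors of the outer pollen wall (exine), and GDSL lipases are needed for pollen in several plants.

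Anthers of Tainung 67 rice were collected from *sstl-s*, the segregants with sterile panicles of the semi-sterile mutant *sstl*, and from *SSTL-F*, the fertile segregants of the same mutant line, which the labels call control. Each genotype was sampled at late pollen mitosis (LpM), when the second mitosis forms sperm cells in fertile anthers. It was also sampled at the young microspore stage (YM), when microspores have left the tetrads in fertile anthers. At YM the study saw few microspores released in *sstl-s*. The *sstl* line came from a T-DNA insertion collection, but sterility did not follow the insertion, so the causal lesion is not given by the genotype labels. There was 1 RNA library for each genotype and stage, 4 in all, so no difference below has a replicate library and no test was made.

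The libraries held 10161675 to 11559430 counted reads, and 3 reads, the smallest level taken as shown, corresponded to 0.260 to 0.295 CPM (counts scaled to a common library total). When libraries are compared, levels are given as CPM after TMM scaling of the 4 libraries. Levels of different members are compared only per length, as the deposited RPKM. Differences are log2 fold changes of *sstl-s* over *SSTL-F*, or of LpM over YM, each with a 95% exact interval that covers counting error only. A member was counted as higher or lower at 2-fold or more. In whole anthers, fewer cells of a type and less RNA per cell cannot be told apart, and GDSL genes of near-identical sequence may have shared reads. Whether the counting used strand is not given in the sources used here.

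The family held a smaller part of the anther transcriptome in sterile than in fertile plants at both stages, and a larger part at LpM than at YM. At LpM its members took 0.574% of all counted reads in *sstl-s* (interval 0.569 to 0.578%) and 0.665% in *SSTL-F* (0.661 to 0.670%). At YM they took 0.295% in *sstl-s* (0.292 to 0.298%) and 0.448% in *SSTL-F* (0.444 to 0.452%). The summed level was thus lower in *sstl-s* by a log2 fold change of -0.26 at LpM (-0.28 to -0.25) and of -0.75 at YM (-0.77 to -0.73).

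GDSL 30 and GDSL 96 made up much of these sums. At LpM GDSL 30 held 42.3% of the family's reads in *sstl-s* and 31.5% in *SSTL-F*, and at YM 20.4% in *sstl-s* and 39.8% in *SSTL-F*. GDSL 96 held 18.9% in *sstl-s* and 22.7% in *SSTL-F* at LpM, and 10.2% in *sstl-s* and 8.30% in *SSTL-F* at YM. Without GDSL 30, the summed log2 fold change of *sstl-s* over *SSTL-F* was -0.51 at LpM and -0.34 at YM, so the order of the stages turned with this single gene. Without both genes it was -0.50 at LpM and -0.33 at YM. The remaining 106 members took 0.223% of reads in *sstl-s* and 0.305% in *SSTL-F* at LpM, and at YM 0.205% in *sstl-s* and 0.232% in *SSTL-F*.

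**Figure D1:**
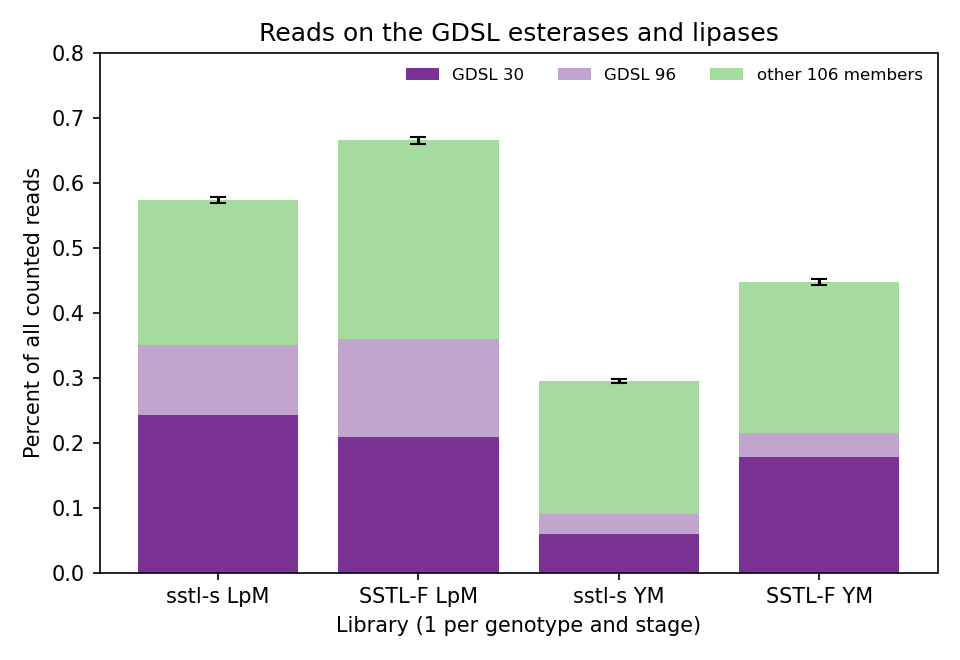
Bars give the percent of all counted reads on GDSL members in each of the 4 libraries, divided into GDSL 30, GDSL 96 and the other 106 members, and whiskers are the 95% exact binomial interval of the family's share. *SSTL-F* LpM is the highest at 0.665% and *sstl-s* YM the lowest at 0.295%, where the GDSL 30 part is smallest.

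Per length, the family ran over several orders of magnitude. By mean RPKM over the 4 libraries, 4 members reached at least 100, 28 lay between 10 and 100, 27 between 1 and 10 and 49 below 1. GDSL 30 led with a mean of 791 RPKM, followed by GDSL 96 with 423, GDSL 53 with 140, GDSL 67 with 104 and GDSL 56 with 84.5. By RPKM, GDSL 30 ranked 14 among all genes in *sstl-s* and 23 in *SSTL-F* at LpM, and at YM 128 in *sstl-s* and 18 in *SSTL-F*. The next 3 members did not share the course of this pair: GDSL 53, GDSL 67 and GDSL 56 each had less at LpM than at YM, whichever the genotype.

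**Figure D2:**
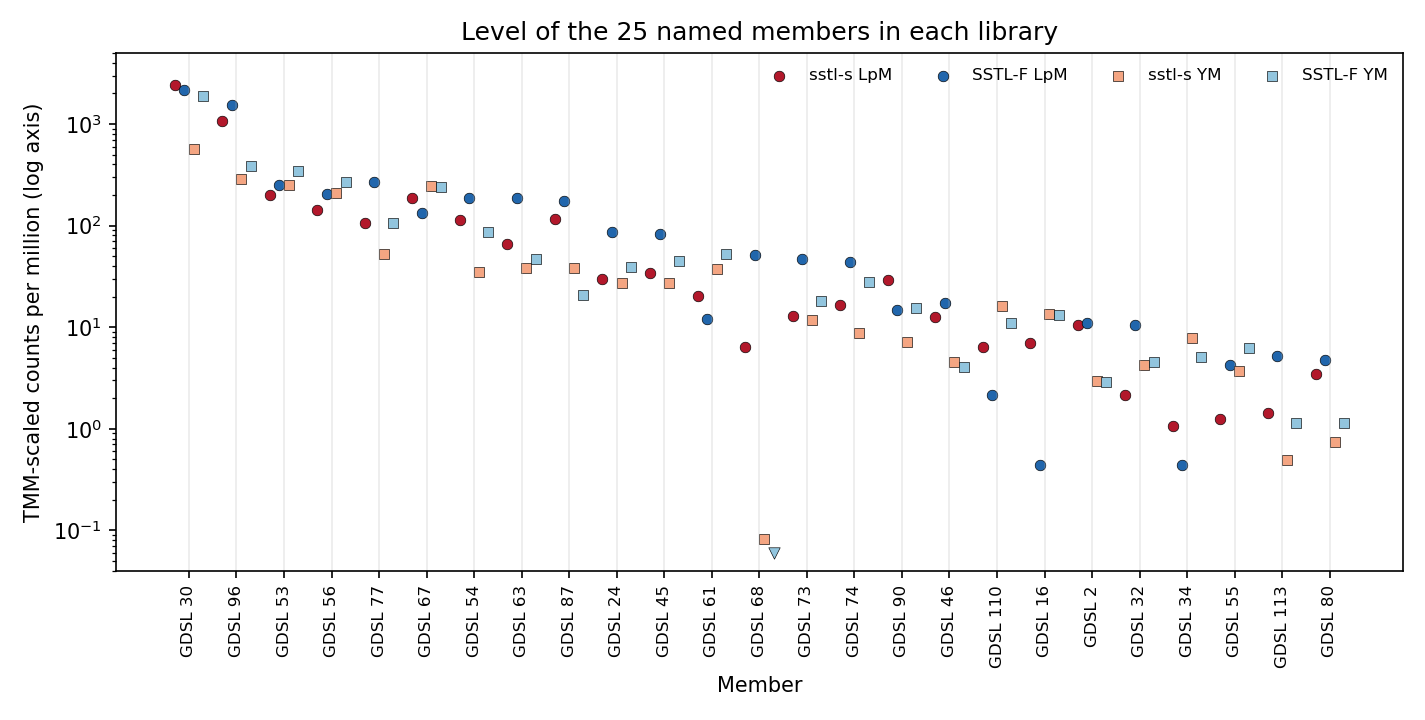
Points give the level of the 25 members described by name in each library, as TMM-scaled CPM on a log axis, with circles for LpM, squares for YM and a downward triangle at the foot for a count of 0. GDSL 30 and GDSL 96 stand highest, GDSL 68 is near 0 in both YM libraries, and GDSL 16 and GDSL 34 lie at 0.443 CPM in *SSTL-F* LpM.

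Markers of anther cell types also differed between these libraries. The tapetum markers, 7 of 8 matched and read in every library, summed to 6857 CPM in *sstl-s* and 8201 CPM in *SSTL-F* at LpM, and to 3650 CPM in *sstl-s* and 7089 CPM in *SSTL-F* at YM. CYP703A3 and CYP704B2, hydroxylases of exine precursors, made up most of these sums. The other markers did not all follow them: at LpM UDT1, TDR and bHLH142, early tapetum regulators, had log2 fold changes of 0.73, 0.06 and 1.28, above 0, and 6 of the 7 were below 0 at YM. The 2 late pollen markers summed to 50.6 CPM in *sstl-s* and 196 CPM in *SSTL-F* at LpM, and to 9.43 CPM in *sstl-s* and 86.3 CPM in *SSTL-F* at YM. They took opposite courses between stages. Os09g0388400 had 2.94 CPM in *sstl-s* and 34.5 CPM in *SSTL-F* at LpM, and 4.92 CPM in *sstl-s* and 77.5 CPM in *SSTL-F* at YM, whereas Os09g0381400 had 47.7 CPM in *sstl-s* and 162 CPM in *SSTL-F* at LpM, and 4.51 CPM in *sstl-s* and 8.86 CPM in *SSTL-F* at YM. The 26 green tissue genes, of which 23 had reads in every library, summed to 995 CPM in *sstl-s* and 1000 CPM in *SSTL-F* at LpM, and to 531 CPM in *sstl-s* and 430 CPM in *SSTL-F* at YM. The part of all these markers in the differences between libraries described below was not tested.

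At LpM the question was which members differed between anthers that fail and anthers that complete pollen development. Most expressed members were lower in *sstl-s*: 53 of 69 had a negative log2 fold change and 16 a positive one. The counting interval lay wholly below 0 for 40 and wholly above 0 for 8. Over all 24543 expressed genes it lay wholly below 0 for 5439 and wholly above 0 for 5107. The median was -0.50, beside 0.01 over all expressed genes. At 2-fold, 16 members (23.2%) were lower in *sstl-s*, where 6.58% of all expressed genes were, and 3 members (4.35%) were higher, where 4.45% of all expressed genes were. For 10 members the whole interval lay below a 2-fold decrease, which held for 1.93% of all expressed genes, and for GDSL 16 alone it lay above a 2-fold increase, as for 0.941% of them.

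GDSL 68 had the most negative value at this stage. Its level was 6.33 CPM in *sstl-s* and 50.8 CPM in *SSTL-F*, from 71 and 573 reads, a log2 fold change of -2.99 (-3.38 to -2.65). Among the 18129 genes with at least 50 reads in the higher of these libraries, only 16 had a more negative value. At YM this gene was nearly silent, with 1 read in *sstl-s* and none in *SSTL-F*, and no fold is given there.

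GDSL 63, GDSL 73 and GDSL 77 are the members that the study names, under the RAP-DB identifiers Os05g0209600, Os05g0518300 and Os06g0156600. GDSL 63 had 66.6 CPM in *sstl-s* LpM and 185 CPM in *SSTL-F* LpM, a log2 fold change of -1.47 (-1.60 to -1.35). GDSL 73 had 12.9 CPM in *sstl-s* LpM and 47.1 CPM in *SSTL-F* LpM, a log2 fold change of -1.86 (-2.14 to -1.60). GDSL 77 had 105 CPM in *sstl-s* LpM and 267 CPM in *SSTL-F* LpM, a log2 fold change of -1.35 (-1.45 to -1.25). All 3 were thus more than 2-fold lower in the sterile anthers at LpM, with intervals wholly below that line. At YM they parted. GDSL 63 had 38.5 CPM in *sstl-s* YM and 47.4 CPM in *SSTL-F* YM, which gave a log2 fold change of -0.30 (-0.49 to -0.11). GDSL 73 had 11.9 CPM in *sstl-s* YM and 18.0 CPM in *SSTL-F* YM, which gave a log2 fold change of -0.60 (-0.93 to -0.28). GDSL 77 had 52.0 CPM in *sstl-s* YM and 106 CPM in *SSTL-F* YM, which gave a log2 fold change of -1.02 (-1.17 to -0.88), and of the 3 it alone reached 2-fold at YM, where its interval spans that line.

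GDSL 24, GDSL 45 and GDSL 74 followed the same course at LpM. GDSL 24 had 29.9 CPM in *sstl-s* and 86.7 CPM in *SSTL-F*, a log2 fold change of -1.53 (-1.72 to -1.36). GDSL 45 had 34.0 CPM in *sstl-s* and 82.7 CPM in *SSTL-F*, a log2 fold change of -1.28 (-1.46 to -1.11). GDSL 74 had 16.5 CPM in *sstl-s* and 43.8 CPM in *SSTL-F*, a log2 fold change of -1.40 (-1.66 to -1.16). These genes were of middle abundance, between 11.3 and 38.8 RPKM at this stage. Less abundant members were lower as well, with wider intervals. GDSL 32 had 24 reads in *sstl-s* and 119 in *SSTL-F*, a log2 fold change of -2.25 (-3.00 to -1.66). GDSL 113 had 16 reads in *sstl-s* and 58 in *SSTL-F*, a log2 fold change of -1.79 (-2.75 to -1.03). GDSL 55 had 14 reads in *sstl-s* and 48 in *SSTL-F*, a log2 fold change of -1.70 (-2.74 to -0.89), so its interval reaches past the 2-fold line. The other members at least 2-fold lower at LpM, GDSL 10, 13, 26, 49, 97 and 108, had between 14 and 45 reads in *SSTL-F*.

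GDSL 16, GDSL 110 and GDSL 34 were the members higher in *sstl-s* at LpM. GDSL 16 had 78 reads (6.95 CPM) in *sstl-s* and 5 reads (0.443 CPM) in *SSTL-F*, a log2 fold change of 3.72 (2.69 to 5.63). Only 15 of the 18129 genes with at least 50 reads had a more positive value. GDSL 110 had 71 reads in *sstl-s* and 24 in *SSTL-F*, a log2 fold change of 1.53 (0.89 to 2.31). GDSL 34 had 12 reads in *sstl-s* and 5 in *SSTL-F*, a log2 fold change of 1.12 with an interval of -0.34 to 3.13 that includes 0. All 3 had their lowest level of the 4 libraries in *SSTL-F* LpM, and were more abundant at YM in both genotypes. GDSL 90 came just short of the line, with 29.1 CPM in *sstl-s* and 14.7 CPM in *SSTL-F*, a log2 fold change of 0.98 (0.71 to 1.26).

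At YM the comparison asked what already differed at the stage when fertile anthers release microspores from tetrads. Again more members were lower than higher in *sstl-s*: 48 had a negative and 20 a positive log2 fold change. The interval lay wholly below 0 for 31 and wholly above 0 for 5. Over all 24543 expressed genes it lay wholly below 0 for 5918 and wholly above 0 for 4303. The median was -0.30, beside -0.03 over all expressed genes. At 2-fold, 13 members (18.8%) were lower, where 4.24% of all expressed genes were, and 1 member (1.45%) was higher, where 8.21% of all expressed genes were. This member, GDSL 91, had 2 reads in *sstl-s* and none in *SSTL-F*, and 2 of the 13 lower members, GDSL 13 and GDSL 49, had none in *sstl-s* and 2 in *SSTL-F*, so these 3 calls rest on counts too low to show a fold. Only 5 of the 13 had at least 50 reads, and for 3 of them (GDSL 30, GDSL 54 and GDSL 74) the whole interval lay below a 2-fold decrease, which held for 0.941% of all expressed genes. No member had its whole interval above a 2-fold increase, which 1.77% of all expressed genes did.

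GDSL 30, the most abundant member, had 569 CPM in *sstl-s* YM and 1867 CPM in *SSTL-F* YM, which gave a log2 fold change of -1.71 (-1.75 to -1.67). Its level was 3.28-fold lower in the sterile library, whereas at LpM it had 2393 CPM in *sstl-s* and 2137 CPM in *SSTL-F*, a log2 fold change of 0.16 (0.14 to 0.19). The low library was thus *sstl-s* YM alone, and the other 3 lay close together. Of the tapetum markers, CYP703A3, CYP704B2, EAT1 and PTC1 were also lowest in this library, and UDT1, TDR and bHLH142 were lowest in *SSTL-F* LpM. GDSL 74 had 8.77 CPM in *sstl-s* YM and 27.6 CPM in *SSTL-F* YM, which gave a log2 fold change of -1.64 (-1.99 to -1.33). GDSL 54 had 34.7 CPM in *sstl-s* YM and 86.6 CPM in *SSTL-F* YM, which gave a log2 fold change of -1.32 (-1.49 to -1.15). At LpM it was lower as well, with 113 CPM in *sstl-s* and 187 CPM in *SSTL-F*, a log2 fold change of -0.72 (-0.82 to -0.62). GDSL 90 had 7.21 CPM in *sstl-s* YM and 15.3 CPM in *SSTL-F* YM, which gave a log2 fold change of -1.08 (-1.49 to -0.70), the reverse of its sign at LpM.

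Across both stages, 7 members were at least 2-fold lower in *sstl-s* each time (10.1%, beside 1.30% of all expressed genes), 9 at LpM alone (13.0%, beside 5.28%) and 6 at YM alone (8.70%, beside 2.94%). The 7 were GDSL 13, 49, 74, 77, 97, 108 and 113, of which only GDSL 74 and GDSL 77 had at least 50 reads at both stages. For GDSL 13 and GDSL 49 the YM call rests on no read in *sstl-s* and 2 in *SSTL-F*, too few to show a fold. GDSL 96, the second most abundant member, was lower by nearly the same amount at each stage. It had 1068 CPM in *sstl-s* LpM and 1540 CPM in *SSTL-F* LpM, a log2 fold change of -0.53 (-0.56 to -0.49). At YM it had 284 CPM in *sstl-s* and 389 CPM in *SSTL-F*, with -0.45 (-0.52 to -0.38) as the log2 fold change. The lean was not confined to scarce members. Of the 32 with a mean of at least 10 RPKM, 27 were below 0 at LpM and 26 at YM, with medians of -0.51 and -0.45. Of all expressed genes, with no RPKM limit, 48.5% were below 0 at LpM and 53.2% at YM. The share among all genes of at least 10 RPKM was not counted. Of the 37 expressed members below 10 RPKM, 26 were below 0 at LpM and 22 at YM.

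**Figure D3:**
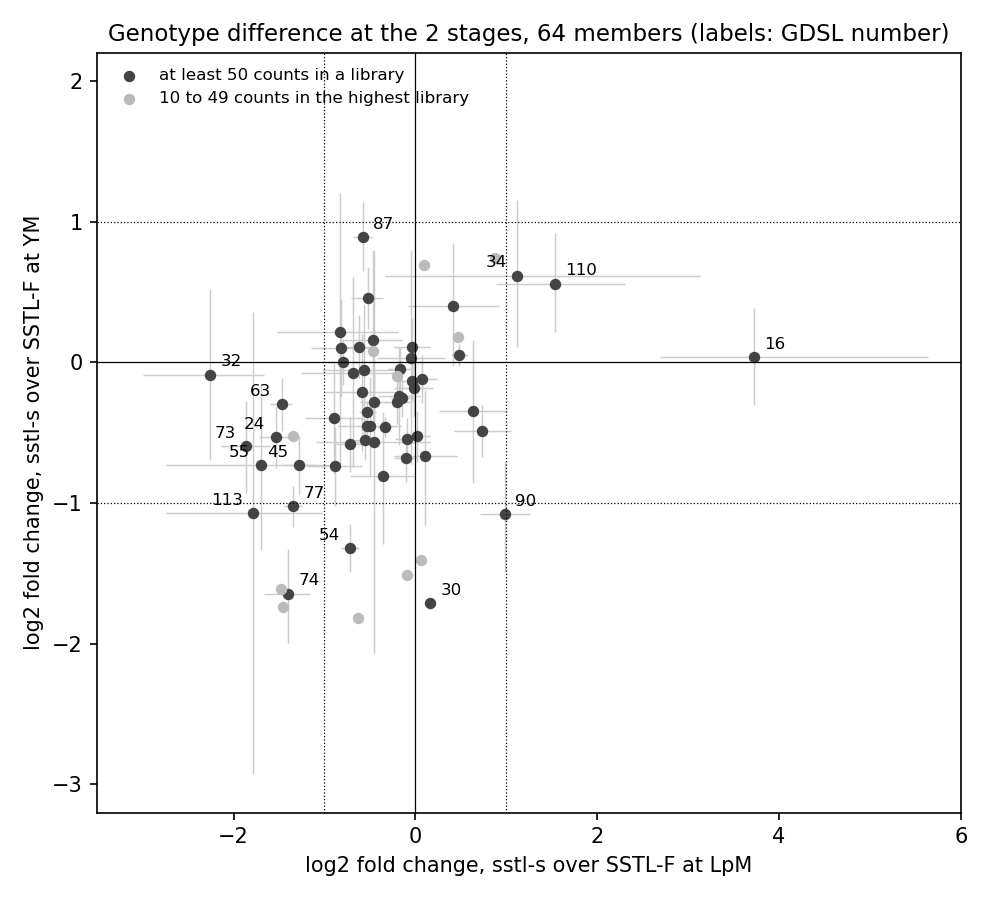
Each point is an expressed member, placed by its log2 fold change of *sstl-s* over *SSTL-F* at LpM (horizontal) and at YM (vertical), with 95% counting intervals for members of at least 50 reads, dotted lines at 2-fold and labels giving the GDSL number. The plot holds 64 members, leaving out 5 with at most 3 reads in both YM libraries, and most points lie left of and below 0, with GDSL 16 far to the right and GDSL 30 low near the centre line.

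Each expressed member has 1 library in which it was highest. At LpM this was *sstl-s* for 6 members (8.70%) and *SSTL-F* for 42 (60.9%), and at YM *sstl-s* for 9 (13.0%) and *SSTL-F* for 12 (17.4%). Over all expressed genes it was *sstl-s* for 18.1% and *SSTL-F* for 29.7% at LpM, and *sstl-s* for 24.5% and *SSTL-F* for 27.7% at YM. Late pollen mitosis in fertile anthers was therefore where most members peaked.

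The stage comparison asked how the family moved between YM and LpM in each genotype. In *sstl-s*, 44 members were above 0 and 25 below, with a median log2 fold change of LpM over YM of 0.33, beside 0.00 over all expressed genes. In this genotype 24 members (34.8%) were at least 2-fold higher at LpM, where 7.39% of all expressed genes were, and 3 (4.35%) at least 2-fold lower, where 4.51% were. Of these 24, GDSL 10 and GDSL 49 had at most 3 reads at both stages. In *SSTL-F*, 49 members were above 0 and 20 below, with a median of 0.46, beside -0.02. There 23 members (33.3%) were at least 2-fold higher, where 12.0% of all expressed genes were, and 5 (7.25%) at least 2-fold lower, where 4.95% were. With the whole interval past 2-fold, 9 members were higher at LpM in *sstl-s*, where 2.46% of all expressed genes were, and 13 in *SSTL-F*, where 4.72% were. A 2-fold higher level at LpM was shared by both genotypes for 16 members (23.2%, beside 4.76% of all expressed genes), GDSL 10 and GDSL 49 among them. A 2-fold lower level was shared for 2 (2.90%, beside 1.59%).

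GDSL 68 was read almost only at LpM. In *SSTL-F* it had 573 reads at LpM and none at YM, so it was at least 164-fold higher at LpM when the YM library is set at 3 reads. In *sstl-s* it had 71 reads at LpM and 1 at YM, for a log2 fold change of 5.22 (3.75 to 11.59). GDSL 96 was higher at LpM by 1.91 (1.85 to 1.96) in *sstl-s* and by 1.99 (1.94 to 2.04) in *SSTL-F* on the log2 scale, the same course in both genotypes. GDSL 2 was alike in this, with 119 reads at LpM and 36 at YM in *sstl-s*, and 124 reads at LpM and 28 at YM in *SSTL-F*. Its log2 fold change was 1.81 (1.30 to 2.43) in *sstl-s* and 1.90 (1.33 to 2.58) in *SSTL-F*. GDSL 46 (1.46 in *sstl-s* and 2.09 in *SSTL-F*) and GDSL 80 (2.11 in *sstl-s* and 1.99 in *SSTL-F*) were also more than 2-fold higher at LpM in both genotypes.

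GDSL 87 had 116 CPM at LpM and 38.3 CPM at YM in *sstl-s*, a log2 fold change of 1.60 (1.45 to 1.76). In *SSTL-F* it had 174 CPM at LpM and 20.6 CPM at YM, which gave a log2 fold change of 3.07 (2.86 to 3.29), so the span was wider in fertile anthers. GDSL 63 showed the same order, with a log2 fold change of 0.79 (0.62 to 0.96) in *sstl-s* and 1.96 (1.82 to 2.11) in *SSTL-F*. GDSL 73 and GDSL 24 were 2-fold higher at LpM only in *SSTL-F*. For GDSL 73 the log2 fold change was 0.12 (-0.22 to 0.46) in *sstl-s* and 1.38 (1.14 to 1.64) in *SSTL-F*, and for GDSL 24 it was 0.13 (-0.09 to 0.36) in *sstl-s* and 1.14 (0.97 to 1.31) in *SSTL-F*. GDSL 30 and GDSL 90 went the other way. GDSL 30 was higher at LpM by 2.07 (2.03 to 2.11) in *sstl-s* and by 0.20 (0.17 to 0.22) in *SSTL-F*. GDSL 90 had a log2 fold change of 2.00 (1.67 to 2.37) in *sstl-s* and of -0.06 (-0.39 to 0.27) in *SSTL-F*.

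A smaller set of members was more abundant at YM. GDSL 16 had 6.95 CPM at LpM and 13.4 CPM at YM in *sstl-s*, a log2 fold change of -0.94 (-1.36 to -0.55). In *SSTL-F* it had 0.443 CPM at LpM and 13.1 CPM at YM, which gave a log2 fold change of -4.63 (-6.53 to -3.62). Both genotypes were thus level at YM, and at LpM few reads were left in the fertile library. GDSL 61 had 20.1 CPM at LpM and 37.7 CPM at YM in *sstl-s*, a log2 fold change of -0.91 (-1.15 to -0.68). In *SSTL-F* it had 12.1 CPM at LpM and 52.8 CPM at YM, which gave a log2 fold change of -2.12 (-2.42 to -1.86). GDSL 34 and GDSL 110 were the 2 members at least 2-fold lower at LpM in both genotypes. GDSL 34 had 12 reads at LpM and 95 at YM in *sstl-s*, and 5 at LpM and 49 at YM in *SSTL-F*, with log2 fold changes of -2.76 (-3.87 to -1.99) and -3.27 (-5.20 to -2.19). GDSL 110 had 71 reads at LpM and 197 at YM in *sstl-s*, and 24 at LpM and 106 at YM in *SSTL-F*, with log2 fold changes of -1.34 (-1.76 to -0.95) and -2.31 (-3.06 to -1.71). GDSL 55 had a log2 fold change of -1.50 (-2.54 to -0.67) in *sstl-s* and of -0.53 (-1.12 to 0.03) in *SSTL-F*. Smaller shifts towards YM were seen in abundant members: GDSL 53 (-0.34 in *sstl-s* and -0.47 in *SSTL-F*), GDSL 56 (-0.57 and -0.39) and GDSL 67 (-0.42 and -0.84).

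**Figure D4:**
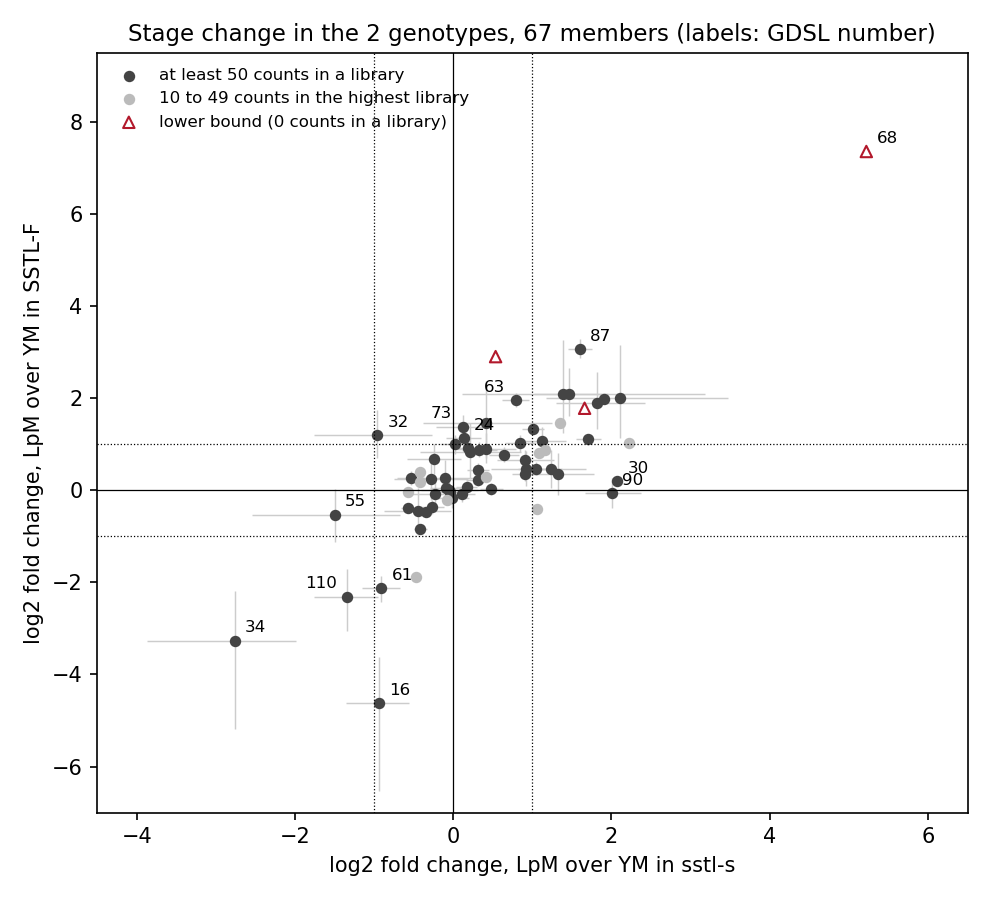
Each point is an expressed member, placed by its log2 fold change of LpM over YM in *sstl-s* (horizontal) and in *SSTL-F* (vertical), with 95% counting intervals for members of at least 50 reads, dotted lines at 2-fold, labels giving the GDSL number and open triangles for lower bounds where a library had no read. The plot holds 67 members, leaving out 2 with at most 3 reads in both *sstl-s* libraries, and shows GDSL 68 far above the rest, GDSL 30 and GDSL 90 to the right near 0, and GDSL 16, GDSL 34, GDSL 61 and GDSL 110 below 0 in both genotypes.

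The difference between the stage changes, *sstl-s* minus *SSTL-F*, had no common direction in the family. The change was more positive in *SSTL-F* for 38 members (55.1%, beside 46.0% of all expressed genes) and in *sstl-s* for 31. The interval of the difference excluded 0 for 15 members on each side, which was not counted over all expressed genes. The median difference was -0.08, beside 0.05 over all expressed genes. GDSL 16 had the widest positive difference among the members described by name, 3.68 (2.44 to 4.93), followed by GDSL 90 with 2.06 (1.60 to 2.53) and GDSL 30 with 1.88 (1.83 to 1.92). Negative differences were found for GDSL 68 at -3.92 (-7.40 to -0.44), GDSL 32 at -2.17 (-3.01 to -1.32), GDSL 87 at -1.47 (-1.73 to -1.21), GDSL 73 at -1.26 (-1.68 to -0.85) and GDSL 63 at -1.17 (-1.40 to -0.95). These intervals hold counting error alone, and GDSL 68 rests on 1 read and none at YM.

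The tables list genes largely in chromosome order, though 238 of the 26346 RAP-DB identifiers come out of order. The RAP-DB identifiers on either side of a member give its chromosome. Members lay on all 12 chromosomes, with 27 on chromosome 1, 17 on chromosome 6, 16 on chromosome 2 and 13 on chromosome 5. With neighbours defined as members at most 5 genes apart in the table, 56 members formed 18 groups and 52 stood alone. Of the grouped members 31 were expressed, and of the lone members 38. Of these, 7 of the 31 grouped and 9 of the 38 lone members were at least 2-fold lower in *sstl-s* at LpM, beside 6.58% of all expressed genes. At YM 6 grouped and 7 lone members were, beside 4.24%. Neither kind thus held all the lower members. The genotype medians at LpM were -0.52 for grouped and -0.48 for lone members, and at YM -0.13 and -0.45.

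The largest group, GDSL 1 to GDSL 11 on chromosome 1, had 6 expressed members of very unequal level. GDSL 6 varied little, with 84.9 CPM in *sstl-s* and 93.9 CPM in *SSTL-F* at LpM, and with 75.3 CPM in *sstl-s* and 89.6 CPM in *SSTL-F* at YM. GDSL 7, GDSL 8 and GDSL 11 of the same group had no read in any library. On chromosome 5, GDSL 69, GDSL 70 and GDSL 72 were side by side and had none either. Adjacent members could also differ in course. GDSL 61 had a higher level at YM, whereas its neighbour GDSL 62 had 10.4 CPM at LpM and 5.49 CPM at YM in *sstl-s*, and 13.4 CPM at LpM and 9.68 CPM at YM in *SSTL-F*. GDSL 64, beside GDSL 63, had 50.1 CPM in *sstl-s* and 68.6 CPM in *SSTL-F* at LpM, and at YM 27.8 CPM in *sstl-s* and 33.8 CPM in *SSTL-F*, with a log2 fold change of -0.45 between genotypes at LpM, against -1.47 for GDSL 63. Next to GDSL 16, GDSL 15 had 58.3 CPM in *sstl-s* and 59.6 CPM in *SSTL-F* at LpM, and at YM 70.3 CPM in *sstl-s* and 76.95 CPM in *SSTL-F*, and did not share its low level in *SSTL-F* LpM.

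Other lipid genes were set beside the family. Among 37 expressed phospholipases of 47, which cut membrane lipids, 3 (8.11%) were at least 2-fold lower in *sstl-s* at LpM and 1 (2.70%) higher, with a median of -0.19, against 6.58% and 4.45% of all expressed genes. At YM 3 (8.11%) were lower and none higher, with a median of -0.21, against 4.24% and 8.21%. A list of 18 genes for exine, cutin and tapetum development, which holds the fatty acid hydroxylases CYP703A3 and CYP704B2, the reductase DPW and the lipid exporter ABCG15, had 5 (27.8%) at least 2-fold lower in *sstl-s* and none higher at YM, with a median of -0.60. At LpM none was lower and 2 (11.1%) were higher, with a median of -0.29. Between stages, 9 phospholipases (24.3%) were at least 2-fold higher and 1 (2.70%) lower at LpM in *sstl-s* (median 0.20), against 7.39% and 4.51% of all expressed genes. In *SSTL-F* 6 (16.2%) were higher and 2 (5.41%) lower (median 0.21), against 12.0% and 4.95%. Of the exine, cutin and tapetum genes, 4 (22.2%) were higher and 2 (11.1%) lower at LpM in *sstl-s* (median 0.37), and 2 (11.1%) higher and 5 (27.8%) lower in *SSTL-F* (median -0.10). Among GDSL members the genotype median was more negative at LpM, and the stage median was positive in both genotypes.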

How the data were processed

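RNA of rice anthers was sequenced as single-end libraries of 90-base reads on an Illumina HiSeq instrument. The authors processed the reads in CLC Genomics Workbench 11 with RAP-DB gene models and deposited a table for each of the 4 libraries. It holds the total count of reads per gene, with RPKM and TPM made by the authors from these counts. The deposited CPM column was treated as a score, since its column totals differ between libraries, and neither it nor TPM entered a result. Mapping settings are not given in the sources used here.

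Counts were scaled by TMM in edgeR 4.0.16 (R 4.3.3) over all 4 libraries. Log2 fold changes used a prior count of 1. Intervals are 95% exact Clopper-Pearson intervals, and those of stage differences are Wald intervals; both, like the floor of 3 counts, cover counting error only. With 1 library a group no model was fitted. The steps were tested on simulated counts that held counting error only, for genes with a mean of at least 50 counts. That test cannot show how the steps do with low counts or with differences between replicate libraries. Members described by name were GDSL 63, 73 and 77, those at least 2-fold different between genotypes with at least 50 reads in the higher library, the 5 of highest mean RPKM, and the 5 of largest stage change in each direction and genotype, likewise with at least 50 reads. Neighbours of named members, those of low count, GDSL 17 and GDSL 79 were picked after their values were seen. Members and lists were chosen with earlier results of these data known. Alternatives were library size only, DESeq2 1.42.0 size factors, TMM of each pair, prior counts of 0.25 and 5, log2(RPKM + 1), other count filters and a whole-interval rule. Of the exine, cutin and tapetum list 18 of 23 genes were matched. Python 3.11.15 was used with scipy 1.17.1, matplotlib 3.10.9, pandas 2.3.3 and numpy 2.4.6.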

Additional observations from a re-analysis of the deposited data

Results flagged for a closer look

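Genotype differences of opposite sign at the 2 stages, with counting intervals clear of 0 at both, were found for 5 members. With 1 library a group the difference between stages was not tested. The log2 fold change of *sstl-s* over *SSTL-F* was 0.16 at LpM and -1.71 at YM for GDSL 30. It was 0.98 at LpM and -1.08 at YM for GDSL 90, and 0.73 at LpM and -0.49 at YM for GDSL 61. The reverse order was found for GDSL 87, with -0.58 at LpM and 0.89 at YM, and for GDSL 17, with -0.53 at LpM and 0.46 at YM. For 2 members the stage change had opposite signs in the genotypes, which was not tested either. Such reversals were not counted over all expressed genes, so neither count is shown to be particular to the family. The log2 fold change of LpM over YM was -0.97 in *sstl-s* and 1.20 in *SSTL-F* for GDSL 32, and -0.53 in *sstl-s* and 0.27 in *SSTL-F* for GDSL 79.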

How the results depend on the processing

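No paired analysis was possible because each genotype and stage has 1 library. The signs of the 4 medians and of all named members' 2-fold differences were kept under every alternative run, and 282 of 300 such values stayed at or past 2-fold. The alternatives rescale or shrink the same counts, so the sign of a 2-fold difference could hardly change. The sizes of the medians moved more. At LpM the genotype median (-0.50) was -0.21 on log2(RPKM + 1), and at YM (-0.30) it was -0.12 on log2(RPKM + 1), -0.15 by library size only and -0.11 with no filter, which brings in members with few or no reads. The stage median in *sstl-s* (0.33) was 0.082 with no filter. The counts of members past 2-fold depended more on the settings, as did the shares of all genes. Each percentage in brackets below is the share of all genes kept under that setting. No filter keeps all 108 members, and at least 50 counts keeps 54. For members lower in *sstl-s* at LpM (16, beside 6.58%), the count was 10 on log2(RPKM + 1) (1.77%). It was also 10 with at least 50 counts (4.21%) and 10 when the whole interval had to pass 2-fold (1.93%). For those higher at LpM (3, beside 4.45%) it was 6 with no filter (5.31%) and 1 by whole interval (0.941%). For those lower at YM (13, beside 4.24%) it was 3 on log2(RPKM + 1) (0.945%), 6 with at least 50 counts (2.53%) and 3 by whole interval (0.941%). For those higher at YM (1, beside 8.21%) it was 2 by library size only (9.89%), 2 with a prior count of 0.25 (8.92%) and 3 with no filter (8.64%). It was 0 with a prior count of 5 (5.81%), with at least 50 counts (4.86%) and by whole interval (1.77%). In *sstl-s*, members higher at LpM than at YM (24, beside 7.39%) numbered 12 on log2(RPKM + 1) (3.13%), 15 with at least 50 counts (5.10%) and 9 by whole interval (2.46%). Those lower (3, beside 4.51%) numbered 5 by library size only (5.04%) and 1 by whole interval (0.97%). In *SSTL-F*, those higher at LpM (23, beside 12.0%) numbered 15 on log2(RPKM + 1) (5.56%) and 13 by whole interval (4.72%). Those lower (5, beside 4.95%) numbered 10 with no filter (6.504%). Without GDSL 30 the family held 0.331% of reads in *sstl-s* and 0.456% in *SSTL-F* at LpM, and at YM 0.235% in *sstl-s* and 0.269% in *SSTL-F*. The RPKM column put the median of all genes at 0.19 at LpM and 0.11 at YM for *sstl-s* over *SSTL-F*. The cause of these shifts was not tested. Depth limits the low members: 54 of the 69 reached 50 counts in at least 1 library.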
